A study of Mus musculus with 12 samples.

Results

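The genes described here are 37 genes of the interstitial matrix and its fibroblasts, chosen by name: fibrillar and other interstitial collagens, matrix glycoproteins, proteoglycans, elastic fibre genes, lysyl oxidases and fibroblast markers. Of these, 35 were read by at least 1 probe set annotated with that symbol alone, among 18193 genes read in this way on the array. Together they had 81 of the 45101 probe sets. Fbn1 had no such probe set here, and the 2 probe sets of Loxl2 also carried another symbol, so neither gene was read. RNA came from primary mammary epithelial cells of female mice of the inbred strain FVB/N, with 1 biological replicate on each of 12 arrays. The p190B group (6 arrays) carried MMTV-rtTA and TetO-p190B-IRES-luciferase, and the control group (6 arrays) carried MMTV-rtTA alone. MMTV-rtTA makes a doxycycline-responsive activator from a promoter that is active mainly in mammary epithelium, and p190B is a GTPase-activating protein. Doxycycline chow was given to all mice at 2 g/kg for 7 days, starting at 5 weeks of age, and glands were removed at 6 weeks, so doxycycline and the activator were shared by all arrays.

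Interstitial matrix is made mostly by fibroblasts, the resident connective tissue cells around the mammary ducts. Procollagen chains fold into triple helices, are trimmed outside the cell, assemble into fibrils whose width proteoglycans limit, and are fixed by lysyl oxidase crosslinks. Elastic fibres form by deposition of elastin on microfibrils. In the pubertal gland this matrix surrounds the elongating ducts, and fibroblasts that stay attached to epithelial fragments can enter an epithelial preparation.

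The cells carried the markers of their label, with signals of other cell types beside them. Krt8, a luminal keratin, ranged from 38760 to 47661 intensity units on the control arrays and from 40415 to 44385 on the p190B arrays, and Krt14, a basal keratin, from 8342 to 14981 and from 9537 to 14454. Fabp4, of the adipocyte list, was as bright as Krt8, from 42977 to 52718 units in control and from 41678 to 48756 in p190B. The other genes read from that list were far dimmer. The brightest of them, Adipoq, ran from 777 to 2228 units in control and from 969 to 2020 in p190B. The T cell gene Cd3d ran from 130 to 2710 and from 14 to 3160. Intensities are linear, scaled per array by the authors, and were analysed as log2(value + 16), a scale on which the change of dim genes is understated. In such a mixture, fewer cells of a type and less RNA per cell cannot be told apart. The labels call the arrays biological replicates without saying which animals or pools they came from. Arrays correlated with each other at r = 0.964 to 0.981 over all probe sets. For Gapdh, the log2 ratio of its 3′ to its 5′ control probe set, which falls or rises with RNA and labelling quality, ran from −0.52 to −0.47 in control and from −0.48 to −0.32 in p190B. The same ratio for Actb ran from 0.25 to 0.35 in control and from 0.31 to 0.59 in p190B, highest on p190B replicates 3 and 1. An 18S control probe set gave 4266 units on p190B replicate 3 and from 233 to 725 on the other arrays.

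The promoters of 4 members are shown because the first 3 genes varied together over the 12 arrays and the fourth had the lowest r with the other members there. The bases are the 120 just before the RefSeq start (GRCm38.p6), 5′ to 3′ on the gene's strand, and capitals mark a match on either strand to TATAAA, a core promoter element, to CCAAT, bound by NF-Y, to GGGCGG, bound by Sp1, or to TGANTCA, bound by AP-1.
Col1a2 (chr6:4505498-4505617, plus strand): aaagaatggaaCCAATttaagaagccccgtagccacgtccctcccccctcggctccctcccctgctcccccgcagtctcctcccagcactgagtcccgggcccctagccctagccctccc
Col3a1 (chr1:45311418-45311537, plus strand): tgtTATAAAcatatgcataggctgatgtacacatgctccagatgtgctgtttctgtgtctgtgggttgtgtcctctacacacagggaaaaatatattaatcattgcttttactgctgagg
Col6a1 (chr10:76726045-76726164, minus strand): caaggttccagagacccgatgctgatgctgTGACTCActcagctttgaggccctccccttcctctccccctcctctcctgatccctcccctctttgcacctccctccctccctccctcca
Tnc (chr4:64047016-64047135, minus strand): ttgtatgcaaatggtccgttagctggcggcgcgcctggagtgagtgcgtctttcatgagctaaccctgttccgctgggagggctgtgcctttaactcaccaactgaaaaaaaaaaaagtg

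Col1a2 held CCAAT from position −109, Col3a1 TATAAA from −117 and Col6a1 TGANTCA from −90, counted from the base before the start. The shown bases of Tnc, before 1 of its 2 starts, held none of the 4. Within 250 bases, however, Tnc did hold TATAAA and GGGCGG. The same 120 bases of Thbs2, which varied with the other members (r = 0.97), also held none of the 4. Over 250 bases before each start, 26 promoters of 20 read members were in the RefSeq table. TATAAA lay in 5 of the 26 (12.4% of all 32851 promoters), CCAAT in 7 (33.9%), GGGCGG in 13 (32.7%) and TGANTCA in 1 (6.75%). Matches could overlap each other, and they describe letters, not binding. No motif was shared by the 3 collagen promoters in the bases shown.

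Between genotypes, none of the 67 member probe sets bright enough to be tested passed limma's test (adjusted p under 0.05 over all 27022 tested probe sets, of which 10, or 0.037%, passed). Read by the brightest probe set of each gene, 28 of 35 members were higher on average in p190B and 7 lower, with a median log2 difference of 0.09 and a mean of 0.09. Over all tested probe sets the median was 0.02, and 54.9% were higher. Without control replicate 6 the members' mean was −0.00016, with 20 of 35 higher. The lean towards p190B thus depended on this array, whose value was the lowest of all 12 for 28 of the 35 members, where 8.97% of all tested probe sets were lowest on it.

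At an unadjusted limma p under 0.05 stood 3 of the 67 member probe sets (4.48%), where the background was 9.32% of all tested probe sets. These were single probe sets of Fbln1, Col1a2 and Vcan. In 0 of the 67 did the 6 p190B arrays lie wholly above or below the 6 control arrays, against 0.877% of all tested probe sets. With the Gapdh ratio as a covariate the members' mean turned to −0.034. On every p190B array but replicate 5 this ratio was above that of all control arrays. The fit with this covariate therefore cannot tell RNA quality from genotype. The part of RNA quality in the members' values was not tested further.

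**Figure D1:**
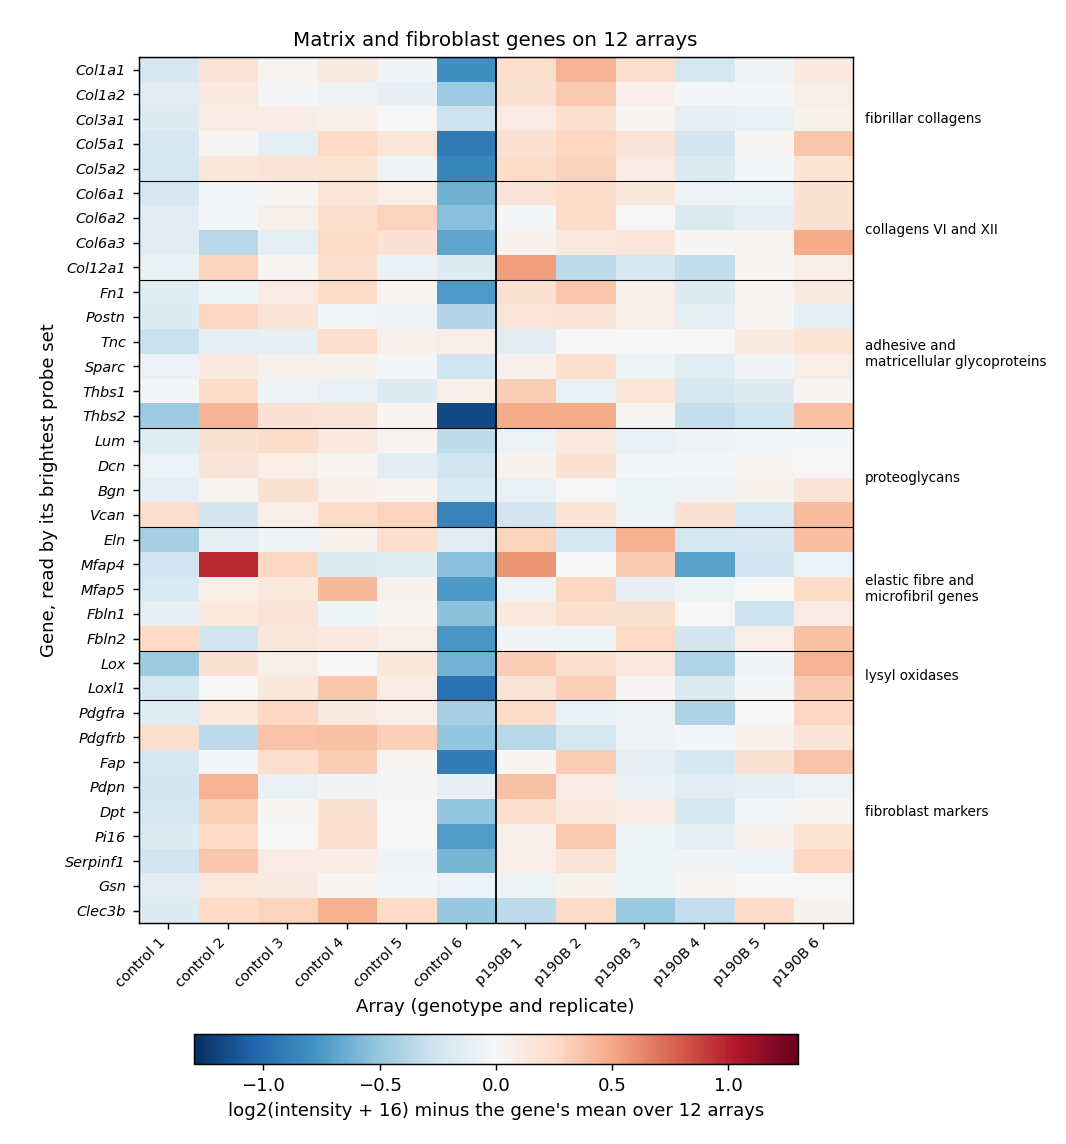
Heat map of 35 matrix and fibroblast genes (rows, by role, each read by its brightest probe set) on 12 arrays (columns); colour gives log2(intensity + 16) minus the gene's mean over the 12 arrays. The column of control replicate 6 is blue for most collagens, Thbs2, Loxl1 and Fap, while Tnc and Thbs1 do not follow it.

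By brightest probe set, the fibrillar collagens, which form the tensile fibrils of connective tissue, were all higher in p190B on average, 5 of 5. None passed the test. The same held for the adhesive glycoproteins, 6 of 6, and for the lysyl oxidases, 2 of 2 read. With the Gapdh ratio as covariate, 2 of the 5 fibrillar collagens, 1 of the 6 glycoproteins and 2 of the 2 lysyl oxidases were higher, and without control replicate 6 the counts were 5, 4 and 2. Col3a1, the chain of collagen III, gave 36798, 45498 and 47934 intensity units as the lowest, median and highest control arrays and 40575, 45400 and 51409 in p190B. The groups overlapped widely, and only p190B replicate 2 exceeded every control array. Its log2 difference was 0.05 (SE 0.07, limma adjusted p = 0.888).

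Col1a2 encodes the alpha 2 chain of collagen I, the main fibril collagen. Its control arrays had 23240, 30503 and 35127 units (lowest, median, highest) and its p190B arrays 31686, 33820 and 40626. The lowest p190B array lay above the control median, and p190B replicates 1 and 2 exceeded all control arrays. The difference was 0.21 (SE 0.09, 95% interval 0.02 to 0.40), the member gene with the smallest unadjusted p by its brightest probe set (0.0294), and it did not pass over all probe sets (limma adjusted p = 0.475). Without control replicate 6 it was 0.14.

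Col5a1 encodes a chain of collagen V, which starts collagen I fibrils. It gave 2703, 4989 and 6140 units in control and 4358, 5828 and 6602 in p190B, with control replicate 6 far below the rest. The difference was 0.27 (95% interval −0.09 to 0.63), and 0.11 without that array. Col1a1, the alpha 1 chain of collagen I, had a p190B mean of 21506 ± 3440 units and a control mean of 18438 ± 3952 (SD, n = 6 arrays), a log2 difference of 0.24 (95% interval −0.08 to 0.56). Col5a2, the partner chain of Col5a1, gave 0.21 (−0.12 to 0.53). Leaving out that array gave 0.10 for Col1a1 and 0.06 for Col5a2.

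Collagen VI forms beaded filaments around cells, and collagen XII binds the surface of fibrils. Col6a3, the long chain of collagen VI, had 7826, 11531 and 15032 units over control and 12830, 13386 and 17609 over p190B. Here p190B replicate 6 stood alone at the top, and control replicates 6 and 2 were the lowest of all arrays. The difference was 0.29 (SE 0.14, 95% interval −0.0038 to 0.58), the largest of any member by its brightest probe set, and it did not pass (limma adjusted p = 0.545). It was 0.18 without control replicate 6.

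Col6a2 shares the trimer with Col6a1 and Col6a3. It gave 9145, 13612 and 16331 units in control and 11704, 13251 and 15923 in p190B, so that the p190B values lay inside the control range. Its difference was 0.04 (−0.23 to 0.31), beside 0.20 for Col6a1 (−0.04 to 0.45). Both were lower without control replicate 6, at −0.065 and 0.097. The other Col6a2 probe set gave 0.25. Col12a1 gave −0.07 (−0.38 to 0.24) by its brightest probe set. Its other tested probe set gave 0.12, and the r between them was 0.29 with genotype means removed.

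The adhesive and matricellular glycoproteins are secreted proteins that link cells to the matrix or tune that contact. By brightest probe set, the 6 members had small positive differences. Sparc, a collagen-binding protein, gave 34169, 41491 and 44801 units in control and 37144, 41181 and 47544 in p190B. The medians nearly coincided, and the difference was 0.04 (95% interval −0.11 to 0.18). Fn1, fibronectin, had 11216, 18419 and 21988 units in control and 16541, 19751 and 23968 in p190B, with only p190B replicate 2 above all control arrays. That difference was 0.19 (−0.09 to 0.48), and 0.067 without control replicate 6.

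Thbs2, thrombospondin-2, whose loss disturbs collagen fibrils, had the largest spread of all members, an SD of 0.49 log2 units over the 12 arrays. Its values were 1120, 2727 and 3464 units in control and 2056, 2962 and 3561 in p190B. Control replicates 6 and 1 were the lowest arrays and p190B replicates 1 and 2 the highest. The difference was 0.27 (95% interval −0.24 to 0.79), and 0.066 without control replicate 6. Postn, periostin, gave 0.06, Tnc, tenascin-C, 0.05, and Thbs1, thrombospondin-1, 0.0072, each with an interval on both sides of 0. The other Tnc probe set gave −0.24 (SE 0.16), while 11 of the 12 tested probe sets of this group were higher in p190B.

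**Figure D2:**
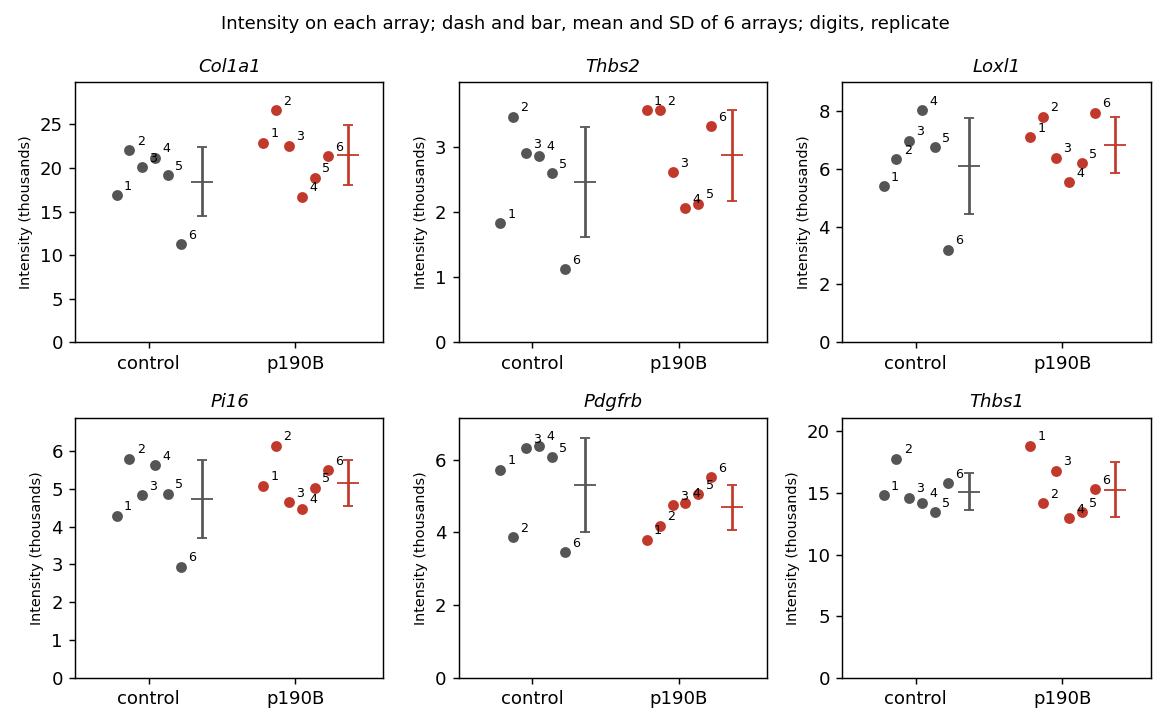
Intensity (units divided by 1000, linear axes from 0) of 6 genes on each array, with points numbered by replicate and the mean and SD of the 6 arrays of a genotype beside them. Control replicate 6 is the lowest array for Col1a1, Thbs2, Loxl1, Pi16 and Pdgfrb, and for Thbs1 it lies among the others.

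The proteoglycans Dcn, Lum and Bgn carry small leucine-rich cores that bind collagen, and Vcan is a large hyaluronan-binding proteoglycan. Decorin (Dcn) gave 29094, 34211 and 39058 units in control and 34157, 35204 and 39679 in p190B. Its difference was 0.07 (95% interval −0.07 to 0.21), the smallest unadjusted p of this group by brightest probe set. Versican (Vcan) had 1848, 3756 and 4151 units in control and 2844, 3535 and 4514 in p190B, and control replicate 6 was again the lowest array. The brightest Vcan probe set gave 0.09, and another of the Vcan probe sets gave 0.39 (SE 0.17, unadjusted p = 0.0379, limma adjusted p = 0.496). Lum, lumican, gave −0.04 and Bgn, biglycan, 0.0025.

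In the elastic fibre group, Eln encodes elastin itself. Its arrays had 4109, 5208 and 6422 units in control and 4733, 5774 and 7637 in p190B. Replicates 1, 3 and 6 of p190B exceeded all control arrays, while replicates 2, 4 and 5 lay within the control range. The difference was 0.16 (95% interval −0.14 to 0.46).

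Mfap5 and Mfap4 encode microfibril-associated proteins. Mfap5 gave 5466, 9624 and 12318 units in control and 8542, 9006 and 11073 in p190B, a difference of 0.09 (−0.24 to 0.41). Mfap4 gave 875, 1141 and 2556 units in control and 790, 1253 and 1921 in p190B. Control replicate 2 and p190B replicate 1 were its highest arrays. Its r with the mean of the fibrillar collagens was 0.66, and 0.63 without control replicate 6. Its difference was −0.04 (−0.56 to 0.48).

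Fbln1 and Fbln2 encode fibulins, which bridge microfibrils and basement membranes. The second tested Fbln1 probe set had the smallest p of all member probe sets. Its mean was 812 ± 156 units over the p190B arrays and 571 ± 90.3 over the control arrays (SD, n = 6), and 5 of 6 p190B arrays were above every control array. The log2 difference was 0.49 (SE 0.14, unadjusted p = 0.00329, limma adjusted p = 0.284), and the brighter Fbln1 probe set gave 0.12 (SE 0.12). Which Fbln1 transcripts each one reads was not analysed here. Fbln2 gave 0.13 (−0.20 to 0.47).

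Lysyl oxidases oxidise lysines in collagen and elastin so that crosslinks form. Loxl1, which acts mainly on elastic fibres, had 3210, 6542 and 8034 units in control and 5531, 6746 and 7953 in p190B. Apart from control replicate 6 both groups covered nearly the same range. The difference was 0.20 (95% interval −0.18 to 0.58), and 0.028 without that array. Lox gave 2618, 4123 and 4577 units in control and 3049, 4516 and 5460 in p190B, where replicates 1, 2 and 6 exceeded all control arrays. Its difference was 0.22 (−0.12 to 0.57), and 0.12 without control replicate 6.

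By brightest probe set, 5 of the 9 fibroblast markers were higher and 4 lower in p190B on average. Clec3b, tetranectin, a marker of matrix-rich universal fibroblasts, gave 3057, 5139 and 5928 units in control and 3064, 3949 and 5092 in p190B. Replicates 1, 3 and 4 of p190B were low, near control replicate 6. The difference was −0.20 (SE 0.17, 95% interval −0.56 to 0.16), and −0.32 without control replicate 6. Gsn, gelsolin, an actin-severing protein, gave 44878, 49713 and 54490 units in control and 47435, 49857 and 51299 in p190B, a difference of −0.01 (−0.12 to 0.09).

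Fap, a surface protease of activated fibroblasts, had 2486, 4647 and 5842 units in control and 3989, 5060 and 6053 in p190B. Its difference was 0.20 (−0.18 to 0.57), and 0.04 without control replicate 6, its lowest array. Pdgfra, the receptor that marks most fibroblasts, gave −0.0041 (−0.28 to 0.27), and Pdgfrb, a receptor shared with pericytes, −0.15 (−0.48 to 0.18). Their other tested probe sets had the other sign, at 0.19 and 0.14 for Pdgfra and 0.04 for Pdgfrb. The other differences were 0.15 for Pi16, a marker of progenitor-like fibroblasts, 0.12 for Serpinf1, an inhibitor of angiogenesis, 0.08 for Dpt, dermatopontin, and 0.02 for Pdpn, podoplanin. The second Serpinf1 probe set gave −0.05. No interval of a fibroblast marker lay wholly on one side of 0.

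**Figure D3:**
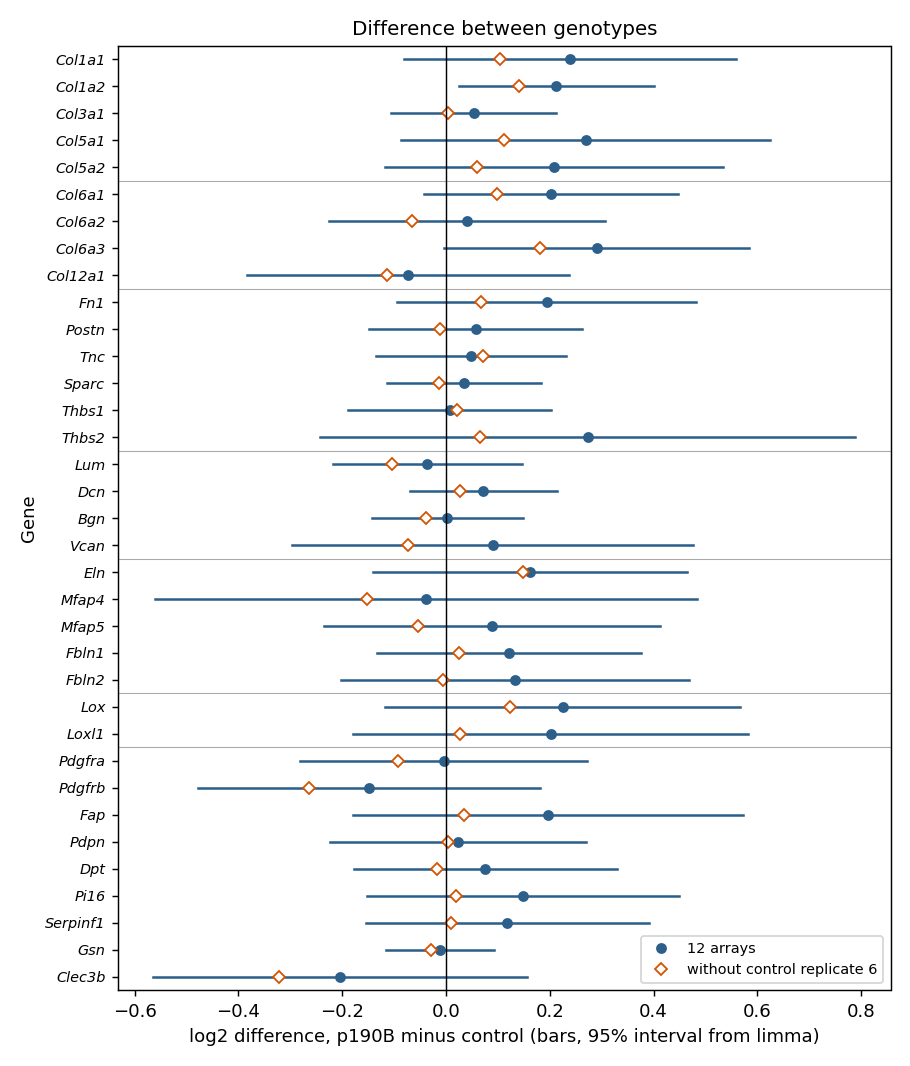
Log2 difference (p190B minus control) of 35 genes, read by the brightest probe set, with 95% intervals from limma over 12 arrays; open diamonds give the difference without control replicate 6. Only the interval of Col1a2 lies wholly above 0 before adjustment, and most diamonds lie closer to 0 than the filled points or below 0.

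Most members varied together from array to array. With genotype means removed, the median Pearson r over the 595 pairs of members was 0.64, and 384 pairs had r above 0.5. The median r of a member with a tested probe set of another gene was −0.02. These are correlations over 12 arrays that share scaling and cell mixture, and they are given as descriptions. Within genotypes the median was 0.78 in control and 0.48 in p190B. Without control replicate 6 it was 0.46, with 281 pairs above 0.5, so that this array carried part of the co-variation but not all of it.

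Control replicate 6 differed most from the other control arrays in Thbs2, by −1.24 log2 units, followed by Loxl1 with −1.05, Vcan with −0.99, Fap with −0.97 and Col5a1 with −0.94. Col3a1 and Sparc each differed by −0.29 there by their brightest probe sets, and fell further by a second probe set. The second Col3a1 probe set had 6666 units on control replicate 6 against 8547 to 14819 on the other control arrays. For Sparc these were 19842 against 25196 to 28341. Tnc and Thbs1 were not low on it, at 0.14 and 0.085. The luminal marker list, with 12 of 12 genes read, averaged 0.31 log2 units higher on this array than on the other control arrays. The difference was −1.01 for the skeletal muscle list, −0.51 for the adipocyte list, −0.45 for the endothelial list and −0.22 for the pericyte list. For the remaining lists it was 0.10 (basal and myoepithelial), 0.074 (B and plasma cells), 0.017 (T and NK cells), 0.011 (macrophages) and −0.024 (Schwann cells). Of the 10 lists, skeletal muscle had the highest r with the members' mean, 0.51, and 0.33 without control replicate 6. Without that array the Schwann cell list (5 of 8 genes read) was highest, at 0.44, from 0.31 over all 12 arrays. The luminal list had r = −0.49, and −0.16 without control replicate 6. Summed intensity of the skeletal muscle list, over 9 of 9 genes, ran from 2905 to 12322 units in control and from 2714 to 12886 in p190B. Summed luminal intensity ran from 215208 to 280681 units in control and from 235936 to 263150 in p190B, and summed adipocyte intensity, over 7 of 9 genes read, from 45547 to 57009 and from 45461 to 52210.5. Their part in the low matrix signal was not tested.

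Of the 35 members, 20 had r above 0.8 with the mean of the other members, and 12 still did without control replicate 6: they included Col5a2 (0.98, and 0.96 without it), Thbs2 (0.97 and 0.92), Loxl1 (0.96 and 0.92), Col3a1 (0.92 and 0.92) and Lox (0.89 and 0.89). At the other end, 6 members had r below 0.5 by their brightest probe sets, namely Tnc (−0.01), Thbs1 (0.09), Eln (0.33), Pdgfrb (0.39), Pdpn (0.43) and Col12a1 (0.43). Without control replicate 6 there were 8 below 0.5, and the order changed. Vcan went from 0.57 to −0.05, Fbln2 from 0.60 to 0.01, Col6a3 from 0.65 to 0.29 and Pdgfrb to −0.20, while Tnc stood at 0.38 and Thbs1 at 0.31.

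Chains of one collagen tracked each other on single pairs, and so did chains of different collagens. With genotype means removed, Col1a1 had r = 0.97 with Col5a2 and 0.95 with Col1a2. In all, 9 pairs were tested by permutation over all 12 arrays on values that keep the genotype means (two-sided, Benjamini-Hochberg over the 9). Each test is against r = 0, while the median r over all member pairs, with genotype means removed, was already 0.64. Col1a1 and Col1a2 had Pearson r = 0.94 (adjusted permutation p = 9e-05) and Spearman rho = 0.88 (adjusted permutation p = 0.00171), with r = 0.97 within control and 0.91 within p190B. Without the 2 arrays farthest from the median of Col1a1, r was 0.77. Col1a1 and Col3a1 gave r = 0.93 (adjusted permutation p = 9e-05, the raw p of 1e-05 being the smallest that these permutations give) and rho = 0.88 (adjusted permutation p = 0.00171), and r = 0.88 without the 2 arrays. For Col6a1 and Col6a2 the permutation test gave r = 0.89 (adjusted p = 0.00105), rho = 0.81 (adjusted p = 0.00654) and r = 0.71 without the 2 farthest arrays.

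The other 6 pairs had lower r. By permutation, Col6a2 and Col6a3 gave r = 0.79 (adjusted p = 0.00621) and rho = 0.77 (adjusted p = 0.0108), with r = 0.54 without the 2 farthest arrays. Dcn and Lum gave r = 0.79 (adjusted permutation p = 0.00621) and rho = 0.71 (adjusted permutation p = 0.0232), with r = 0.59 without the 2 arrays. Pi16 and Clec3b passed by Pearson r only (0.67, adjusted permutation p = 0.00972; rho = 0.57, adjusted permutation p = 0.0889), with r = 0.59 without the 2 arrays. The same held for Col1a1 and Pdgfra (r = 0.68, adjusted permutation p = 0.0174; rho = 0.50, adjusted permutation p = 0.132), where r was 0.74 without the 2 farthest arrays and 0.44 without control replicate 6. Neither test passed for Col1a1 with Pdgfrb (r = 0.17, rho = −0.20, adjusted permutation p = 0.705 and 0.544) or with Tnc (r = −0.06, rho = −0.25, adjusted permutation p = 0.853 and 0.483). Without the 2 arrays these were −0.38 and 0.20. Raw permutation p-values of the 9 Pearson tests ran from 1e-05 to 0.853.

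Neighbouring genes were among the pairs that moved together: in RefSeq Col3a1 lies next to Col5a2, Col6a1 next to Col6a2 and Dcn next to Lum, with 0 protein-coding genes between them. With genotype means removed, unlike in the 9 tests, their r was 0.92, 0.95 and 0.87, and 0.96, 0.89 and 0.77 without control replicate 6. Col1a1 and Col1a2, on different chromosomes, reached 0.95 on the same measure.

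A second pattern appeared in Pdgfrb, Vcan, Fbln2 and Col6a3, singled out after their values were seen. Their pairs had r from 0.78 to 0.87, and from 0.43 to 0.75 without control replicate 6. On these genes control replicate 2 was low as well, with 3861 units of Pdgfrb against 5725 to 6383 on control replicates 1, 3, 4 and 5. By its brightest probe set, Pdgfrb followed the endothelial marker list, 10 of 10 genes read, such as Pecam1 and Cdh5. Summed intensity of that list ran from 44223 to 65074 units in control and from 45673 to 66100 in p190B, and no endothelial gene of the 10 was below the test's level filter.

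Over all 350 relations of a member with the mean of 1 of 10 marker lists (genotype means removed, 12 arrays, permutation within genotype, Benjamini-Hochberg over the 350), only Pdgfrb with endothelium passed by Pearson r. That r was 0.96 (permutation p = 0.00013, adjusted p = 0.0455), and rho was 0.93 (permutation p = 0.00023, adjusted p = 0.0805). It was 0.99 within control, 0.91 within p190B, 0.93 without the 2 arrays farthest from the median of the endothelial list and 0.95 without control replicate 6. These values are of the brightest Pdgfrb probe set. The other tested Pdgfrb probe set had r = 0.76 with it, and its relation to the endothelial list was not tested. The endothelial r was 0.83 for Col6a3 (adjusted permutation p = 0.131), 0.83 for Fbln2 (0.134) and 0.77 for Vcan (0.328), none of which passed. Pdgfrb with the 8 pericyte markers, summing to 24682 to 34532 units in control and 23861 to 39654 in p190B, had r = 0.80 (adjusted permutation p = 0.134).

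Thbs1 had r = 0.16 with the mean of the fibrillar collagens over the 12 arrays, and 0.46 without control replicate 6. It had r = 0.82 with the basal and myoepithelial list (9 of 9 genes read, 72405 to 91198 units summed in control and 78089 to 90692 in p190B). This did not pass over the 350 relations (rho = 0.85, adjusted permutation p = 0.134 and 0.140), and r was 0.80 without the 2 farthest arrays. With luminal markers, r was −0.89 for Pdgfrb, −0.89 for Col6a3 and −0.84 for Vcan (adjusted permutation p = 0.113, 0.131 and 0.113). At an unadjusted permutation p under 0.05 there were 28 of the 350 relations by Pearson r. The share of such cells in a preparation was not measured, and its part in these values was not tested.

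**Figure D4:**
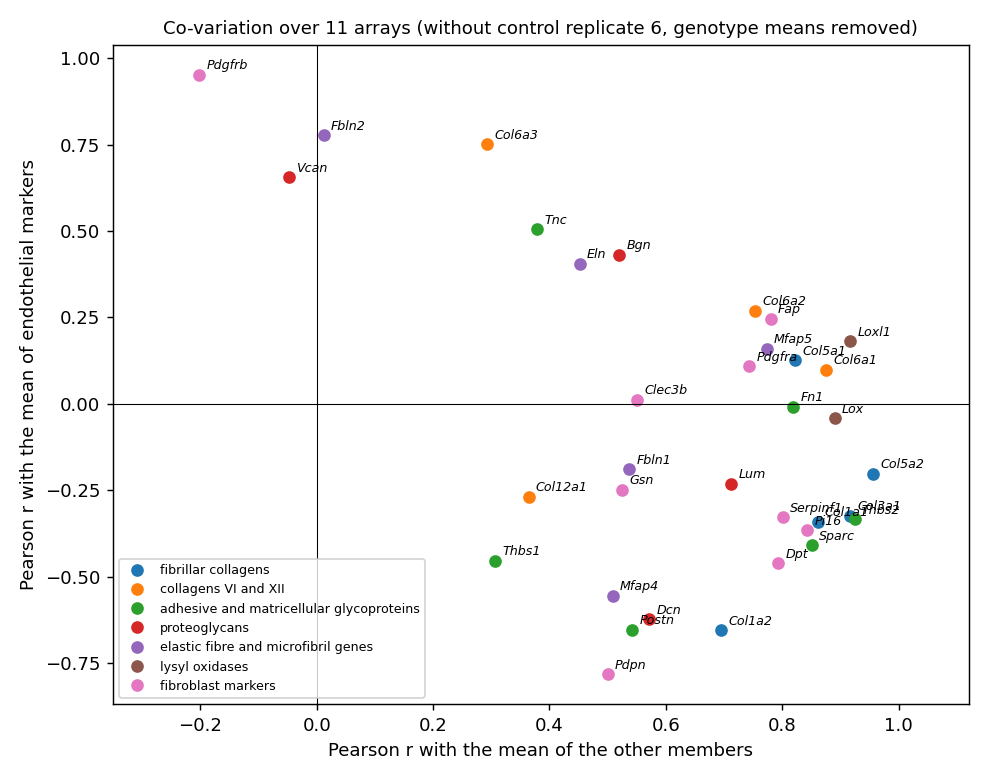
Each gene's Pearson r with the mean of the other members (x axis) and with the mean of 10 endothelial markers (y axis), over 11 arrays without control replicate 6 and with genotype means removed; colours give the role. Fibrillar collagens, Thbs2 and the lysyl oxidases lie to the right, and Pdgfrb, Fbln2, Vcan and Col6a3 lie at the upper left.

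Further genes of the same pathway were read from lists. Of 24 collagen biosynthesis and processing genes 20 were tested, and 0 rose or fell (limma, 1 at an unadjusted p under 0.05), with a median difference of 0.05. The 3 with the smallest p were Colgalt1, a collagen galactosyltransferase (0.15, SE 0.07), Plod3, a lysyl hydroxylase (0.17, SE 0.08), and Bmp1, the procollagen C-proteinase (0.19, SE 0.09). Their limma adjusted p ran from 0.498 to 0.561.

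Of 40 other interstitial matrix genes 39 were tested, with 0 called, 1 at an unadjusted limma p under 0.05 and a median of 0.09. Their smallest p belonged to Loxl3, a lysyl oxidase (0.23, SE 0.10), Matn2, matrilin-2 (−0.23, SE 0.13), and Ccdc80, a secreted matrix-binding protein (0.29, SE 0.18). Of 32 other fibroblast genes 28 were tested, again with 0 called, 1 at an unadjusted p under 0.05 and a median of 0.05. Pcsk6, a proprotein convertase, gave 0.30 (SE 0.13), Mrc2, a collagen uptake receptor, 0.38 (SE 0.19), and Meox2, a homeobox factor, −0.34 (SE 0.25).

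Among 12735 other genes, those whose values over the 12 arrays were most like the mean of the members were Ccdc80 (r = 0.95), Bicc1 (0.94), Plat (0.94), Srpx (0.94), Cmtm3 (0.94), Islr (0.93), Rnase4 (0.93), Fstl1 (0.93), Emilin2 (0.92) and Rcn3 (0.92). They were ranked by r with genotype means removed, which is a description. Plat encodes tissue plasminogen activator, Emilin2 an elastic fibre glycoprotein and Fstl1 a secreted follistatin-like protein. Without control replicate 6 their r ran from 0.81 for Islr to 0.96 for Bicc1.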

How the data were processed

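Each deposited value is a linear intensity of 1 probe set on 1 array. The submitters' processing notes name MAS5, with version and scaling target not given in the sources used here. The 2% trimmed mean was nearly equal on all arrays. The array's own 64 control probe sets were left out of all tests. Genes were named through the platform annotation, by probe sets with 1 symbol, and the probe set with the highest mean stood for its gene.

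Values were taken as log2(value + 16), and probe sets with a mean at or above the 40th percentile were tested (27022). The genotype contrast was fitted in limma 3.58.1 under R 4.3.3 (moderated two-sided test with an intensity trend, Benjamini-Hochberg over all tested probe sets, threshold 0.05). The steps were tested on simulated data. Co-variation used values with genotype means removed, except that 9 fixed pairs were tested on values with the genotype means kept. These and 350 pairs of member and marker list had 100000 permutations each, within genotype for the 350. Precision is limited by having 6 arrays in each group.

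Members and lists were chosen with earlier results of these data known. All members were to be named, with array values for the brightest, the smallest-p and the most variable member of each role, 3 genes per further list by p, 10 genes most like the members and 10 pairs, of which the pair with Fbn1 could not be read. Other settings were pseudocounts of 1 and 64, no filter or the 60th percentile, quantile normalisation, equal medians, no trend, the replicate number as a block, the mean of all tested probe sets of a gene, covariates, and leaving out arrays.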

Additional observations from a re-analysis of the deposited data

Results flagged for a closer look

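Of 86 groups of 6 arrays examined (70 of single genes, 16 of means over roles or over all members), 5 held an array far from the other arrays of its genotype, by the gap to the nearest array as a share of the group's range. Chance gives about 1 in 20 groups, or 4.3 here.

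Among p190B arrays, replicate 6 had 14.11 log2 units of Col6a3 against 13.65 to 13.79 on the others. p190B replicate 2 had 14.64 of Lum against 14.43 to 14.50, and 15.28 of Dcn against 15.06 to 15.14. Among control arrays, replicate 2 had 12.21 of Pdpn against 11.52 to 11.74, and the mean of the proteoglycans on replicate 6 was 13.32 against 13.70 to 13.88.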

How the results depend on the processing

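No member probe set passed limma under any setting run, and the smallest adjusted p of a member lay between 0.213 and 0.749. The counts at an unadjusted p under 0.05 ran from 0 to 6. The members' mean difference ran from −0.034 (Gapdh ratio as covariate) to 0.10 (all tested probe sets of a gene averaged) and, leaving out 1 array, from −0.00016 (control replicate 6) to 0.13. The median r between members ran from 0.46 to 0.74. The replicate number did not pair the arrays: deviations of same-numbered arrays correlated from −0.29 to 0.41. With the number as a block, 0 member probe sets passed, the mean difference was again 0.093, and the median r was 0.74.

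Signs of small differences changed. With the Gapdh ratio as covariate so did larger ones, such as Thbs2 (0.27 without it), Col1a1 (0.24) and Col5a2 (0.21). The cause was not tested. Quantile normalisation gave −0.013 for Col3a1, −0.044 for Sparc and 0.0035 for Pdgfra. Equal medians gave −0.022 for Thbs1, −0.026 for Bgn and −0.0063 for Pdpn. The Gapdh ratio as covariate gave −0.039 for Col1a1, −0.086 for Col3a1, −0.047 for Col5a2, −0.067 for Col6a2, −0.012 for Fn1, −0.12 for Postn, −0.037 for Sparc, −0.20 for Thbs1, −0.18 for Thbs2, −0.032 for Eln, −0.15 for Fbln1, −0.19 for Pdpn, −0.13 for Dpt and 0.012 for Gsn. Without p190B replicates 1 and 3, Thbs1 gave −0.11, Pdpn −0.048 and Gsn 0.015. The lymphocyte markers as covariate gave 0.0016 for Pdgfra.

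Leaving out 1 array, differences that changed sign ran from −0.013 to 0.067 for Sparc, −0.092 to 0.076 for Pdgfra, −0.056 to 0.055 for Thbs1, −0.038 to 0.042 for Bgn, −0.052 to 0.11 for Pdpn, −0.065 to 0.10 for Col6a2, −0.012 to 0.12 for Postn, −0.017 to 0.15 for Dpt, −0.042 to 0.014 for Gsn, −0.0044 to 0.097 for Tnc, −0.10 to 0.0075 for Lum, −0.16 to 0.15 for Mfap4, −0.074 to 0.16 for Vcan, −0.053 to 0.18 for Mfap5 and −0.0061 to 0.20 for Fbln2.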

Other observations

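The further probe sets of a gene usually varied more between arrays than its brightest. Of 32 further tested probe sets of the 24 members with at least 2, 27 had a larger SD over the 12 arrays on the log2 scale than the brightest one. For Col3a1 the SD was 0.14 by the brightest probe set and 0.32 by the other, with r = 0.73 between them. For Sparc it was 0.13 and 0.15. Col1a1 went the other way, with 0.31 and 0.24. The median r between the brightest and a further probe set was 0.81 with genotype means removed, and 10 of the 32 had a genotype difference of the other sign.

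Gsn held the largest disagreement. Its brightest probe set and 1 of the others had r = −0.68, with SDs of 0.079 and 1.33. The signal of the latter ran from 22 to 526 units on the control arrays.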
